A study of Mus musculus with 12 samples.

Results

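The interferon-stimulated genes described here are 41 genes that cells switch on when an interferon binds its receptor, and they were followed in whole aortic tissue of mice in 4 treatment groups. The members were taken by gene name from the probes that were not control spots, and 54 probes carried them. At least 1 probe could be tested for 38 of the 41 genes, out of 20026 gene names tested and 34796 on the array. A probe entered the test when, in some group, the scanner software called it well above background on each of the 3 arrays. Oas3 and Epsti1 were well above background on 0 of the 12 arrays, and Ifi44 was not so on all arrays of any group, so these 3 genes have no result below. All mice were young adult C57BL/6J males, and RNA came from a suprarenal stretch of aorta at day 3. The DMSO group received the solvent dimethyl sulfoxide, and the rapamycin group received 2 mg/kg/day of rapamycin, an inhibitor of the kinase mTOR, in that solvent. The BA+DMSO group received the solvent with 150 mg/kg/day of β-aminopropionitrile (BAPN), which blocks the crosslinking of collagen and elastin, and 1 µg/kg/min of angiotensin II. The BA+rapamycin group received BAPN, angiotensin II and rapamycin at the same doses. Each group held 3 arrays, and BAPN with angiotensin II is called the challenge from here on. The titles of the DMSO arrays start with "Pre", whereas the design text of the series describes that group as given DMSO alone, and the design text was followed. Whether these arrays come from day 3 or from before treatment is therefore not certain, which bears on every difference from the DMSO group. The labels do not tie the arrays to named animals, so the p-values measure the spread between these samples only.

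Interferons are secreted when cells sense foreign or misplaced nucleic acids. Type I interferons bind the receptor Ifnar1 and Ifnar2, whose kinases Jak1 and Tyk2 start a signal that brings Stat2 and Irf9 together in a complex that binds the interferon-stimulated response element in the promoters of target genes. Interferon gamma uses its own receptor and acts on promoters through the gamma-activated sequence. The induced genes encode sensors of RNA and DNA, enzymes that attack viral RNA, GTPases, the ubiquitin-like protein Isg15 and parts of the pathway itself.

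The promoter windows of the members were read from RefSeq (mouse GRCm38.p6, 250 bases before to 50 bases after each start), which is a later build than the mm9 build of the array files. A window was found for 31 of the 41 members, and none was used for Mx1, Mx2, Rtp4, Zbp1, Parp9, Parp14, Iigp1, Oas2, Usp18 and Dhx58. The core letters of the interferon-stimulated response element, GAAA followed after any 2 bases by a second GAAA, were searched on both strands. They occurred in 16 of the 31 members and in 3.99% of all 27025 gene symbols in the table. The palindromic letters TTCNNNGAA of the gamma-activated sequence occurred in 9 of the 31 members and in 9.55% of all symbols. These are matches of letters and do not show that a factor was bound. The 160 bases upstream of 6 of the 16 genes are shown 5′ to 3′ on the strand of the gene, with the core letters, or their reverse complement where the match is on the opposite strand, in capitals, because the first 3 genes rose under the challenge and the last 3 carried the same letters without passing the test there.
Isg15, chr4:156200819-156200978, minus strand: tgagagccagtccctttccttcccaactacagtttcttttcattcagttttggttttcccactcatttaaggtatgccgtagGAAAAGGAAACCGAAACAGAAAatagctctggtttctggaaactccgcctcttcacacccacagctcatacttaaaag
Rsad2, chr12:26456453-26456612, minus strand: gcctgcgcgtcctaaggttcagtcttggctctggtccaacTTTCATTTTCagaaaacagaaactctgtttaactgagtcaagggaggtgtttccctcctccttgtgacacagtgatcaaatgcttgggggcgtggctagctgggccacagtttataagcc
Bst2, chr8:71537473-71537632, minus strand: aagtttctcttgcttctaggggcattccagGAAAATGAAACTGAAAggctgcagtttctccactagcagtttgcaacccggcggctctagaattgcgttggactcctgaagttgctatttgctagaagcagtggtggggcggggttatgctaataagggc
Gbp2, chr3:142620503-142620662, plus strand: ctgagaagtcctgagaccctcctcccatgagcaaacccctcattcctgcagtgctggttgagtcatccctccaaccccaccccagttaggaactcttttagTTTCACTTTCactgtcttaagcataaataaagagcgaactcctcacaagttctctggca
Igtp, chr11:58199396-58199555, plus strand: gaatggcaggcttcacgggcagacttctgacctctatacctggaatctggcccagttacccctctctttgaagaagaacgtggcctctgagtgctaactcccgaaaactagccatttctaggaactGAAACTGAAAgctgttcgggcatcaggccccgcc
Irgm1, chr11:48871421-48871580, minus strand: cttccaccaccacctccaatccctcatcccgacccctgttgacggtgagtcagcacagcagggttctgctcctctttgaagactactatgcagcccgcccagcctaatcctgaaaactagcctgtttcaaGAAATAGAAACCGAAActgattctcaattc
In Isg15 the 3 matches overlap and form 1 run that begins 78 bases before the start. In Ifit1 the matches begin 104 and 85 bases before the start, and in Ifit3 156 and 122 bases before it. The 15 tested members with the core letters had a median log2 difference of 0.65 under the challenge and -0.86 under rapamycin in challenged mice. The 13 tested members with a window that lacked those letters had medians of 0.56 and -0.94. For TTCNNNGAA, the 9 tested members with the letters had medians of 0.11 and -0.86, and the 19 without them 0.66 and -0.95. In the challenge under rapamycin, members with and without the core letters had 0.12 and 0.22, and those with and without TTCNNNGAA -0.23 and 0.23. Differences between these sets were not tested.

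Levels are given as the log2 of the background-subtracted probe signal over the 75th percentile of that array, so that 0 marks a probe at the percentile, and differences are differences of these log2 levels. The signal at the 75th percentile lay between 221 and 280 on the DMSO arrays, 257 and 337 on the rapamycin arrays, 78.1 and 246 on the BA+DMSO arrays and 74.6 and 109 on the BA+rapamycin arrays. All 5 smooth muscle markers were well above background on every array, and their summed level ranged from 2454 to 4815. The summed level of 4 leukocyte markers ranged from 3.57 to 4.37 in the DMSO group, 3.83 to 5.49 in the rapamycin group, 20.2 to 35.8 in the BA+DMSO group and 27.9 to 33.0 in the BA+rapamycin group. The summed level of 9 macrophage markers ranged from 24.6 to 45.7, 40.95 to 54.1, 76.0 to 185 and 105 to 109 in the same groups. The 3 DMSO arrays and 1 rapamycin array shared a slide, and the other 8 arrays were on a second slide. The BA+DMSO arrays differed most among themselves, with correlations between arrays of 0.949 to 0.974 against 0.986 to 0.989 in the DMSO group, and replicate 2 was the dimmest of them. Counts of calls that rest on replicate 2 are given with and without it.

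Under the challenge alone, many members rose and no member was called lower. Of the 38 tested members, 15 were called higher and 0 lower in BA+DMSO than in DMSO aortas, which is 39.5% against 10.4% of all genes called higher. The median log2 difference of the members was 0.72, against -0.02 over all genes, and 33 of the 38 lay above 0. In 19 members all BA+DMSO arrays exceeded all DMSO arrays, or 50% against 15.4% of all genes. The genes called higher included the sensors Ifih1, Dhx58 and Zbp1 and the transcription factors Irf7 and Irf9. Also called higher were the effectors directed at RNA or nucleotides, Oas2, Oasl1, Oasl2, Isg20 and Rsad2. The others were the modifier Isg15, the GTPase Mx2, the membrane proteins Bst2 and Ifitm3, and the secreted glycoprotein Lgals3bp. In bulk tissue, more cells of a type and more RNA per cell cannot be told apart, and the leukocyte and macrophage marker levels above moved with this comparison. Neutrophil markers were above 0 in 4 of 4 (median 1.69, 1 called), adipocyte markers in 4 of 4 (median 1.61, 0 called) and smooth muscle markers in 2 of 5 (median -0.35, 0 called). The part of these cells in the comparison was not tested. DMSO and BA+DMSO arrays were on different slides, so slide and challenge cannot be told apart here: with the slide as a fixed block, resting on the 1 rapamycin array of the first slide, 0 members and 0.0599% of all genes were called, and the median of the members was 0.75.

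**Figure D1:**
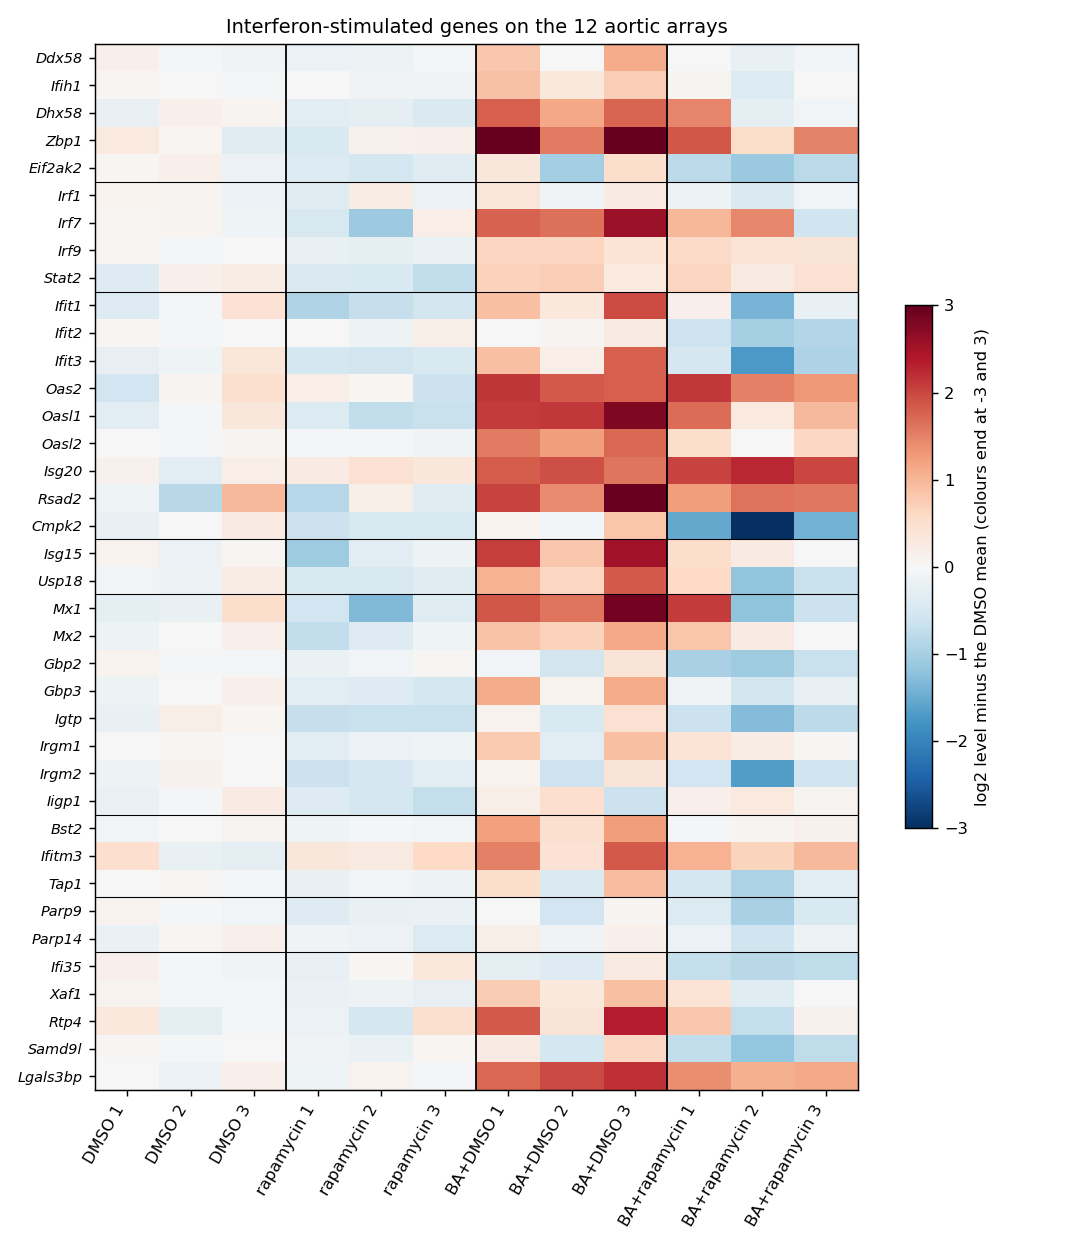
Log2 level of each of the 38 tested members (rows, with black lines between roles) on each of the 12 arrays (columns), minus the mean of the DMSO arrays; red is higher and blue lower. The BA+DMSO columns are mostly red, with replicate 2 paler, and the BA+rapamycin columns keep red in Isg20, Oas2, Rsad2 and Lgals3bp and turn blue in Cmpk2 and Ifit2.

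Among the nucleic acid sensors, Zbp1, which binds left-handed DNA and RNA helices, had the largest challenge difference. Its probe lies at chr2:173039307-173039366 (mm9, as are all probe positions here). Its levels were -2.37, -2.61 and -3.04 in the DMSO group, -3.13, -2.54 and -2.52 in the rapamycin group, 0.31, -1.11 and 0.49 in the BA+DMSO group and -0.82, -2.12 and -1.18 in the BA+rapamycin group. All BA+DMSO arrays exceeded all DMSO arrays, and its level was 5.96-fold higher in the BA+DMSO group, a log2 difference of 2.58 ± 0.44 (SE, adjusted p = 0.00327). In BA+rapamycin aortas it stayed above the rapamycin group, by 1.36 ± 0.44 (SE, adjusted p = 0.0302), and its -1.27 ± 0.44 difference from BA+DMSO was not called (adjusted p = 0.177). Its second probe gave 2.84 for the challenge. The cytosolic RNA helicases Ifih1 (Mda5) and Dhx58 (Lgp2) rose by 0.64 ± 0.19 (SE, adjusted p = 0.0359) and 1.57 ± 0.38 (SE, adjusted p = 0.0171), whereas the related helicase Ddx58 (Rig-I) had 0.65 ± 0.25 (SE, adjusted p = 0.0846) on the probe used and -0.47 on its other tested probe. The kinase Eif2ak2, which halts translation when it binds double-stranded RNA, had levels of -0.63, -0.51 and -0.85 in the DMSO group, -1.08, -1.20 and -1.03 in the rapamycin group, -0.32, -1.68 and -0.14 in the BA+DMSO group and -1.45, -1.77 and -1.49 in the BA+rapamycin group. BA+DMSO replicate 2 lay more than 1 log2 unit below its 2 companions for Eif2ak2, and the challenge difference of -0.05 ± 0.33 became 0.44 without it, in neither case called.

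Of the 4 transcription factors, Irf9 and Irf7 rose under the challenge, and none was called between the challenged groups. Irf9, the DNA-binding part of the type I complex (probe at chr14:56228806-56228865), was at 2.04, 1.96 and 2.02 in the DMSO group, 1.80, 1.74 and 1.82 in the rapamycin group, 2.64, 2.64 and 2.42 in the BA+DMSO group and 2.59, 2.41 and 2.39 in the BA+rapamycin group. The groups with and without the challenge did not overlap, and Irf9 rose by 0.56 ± 0.14 (SE, adjusted p = 0.0203) without rapamycin and by 0.68 ± 0.14 (SE, adjusted p = 0.00495) with it. Stat2, its partner, was at 1.62, 2.18 and 2.24 in the DMSO group, 1.57, 1.57 and 1.27 in the rapamycin group, 2.71, 2.76 and 2.32 in the BA+DMSO group and 2.66, 2.28 and 2.47 in the BA+rapamycin group. Stat2 rose with rapamycin present, by 1.00 ± 0.21 (SE, adjusted p = 0.00535), and had 0.58 ± 0.21 (SE, adjusted p = 0.0768) without it. Irf7, the factor that amplifies interferon production (probe at chr7:148450664-148451014), was at -3.23, -3.17 and -3.38 in the DMSO group, -3.73, -4.35 and -3.07 in the rapamycin group, -1.49, -1.62 and -0.66 in the BA+DMSO group and -2.26, -1.83 and -3.86 in the BA+rapamycin group. It rose 4.02-fold under the challenge, by 2.01 ± 0.49 (SE, adjusted p = 0.0169), and its difference of -1.39 ± 0.49 between the challenged groups was not called (adjusted p = 0.181), although the challenged groups did not overlap; Irf7 was well above background on 2 of the 3 BA+rapamycin arrays. Irf1, a factor shared with interferon gamma, was at 2.96, 2.94 and 2.68 in the DMSO group, 2.49, 3.08 and 2.68 in the rapamycin group, 3.23, 2.75 and 3.10 in the BA+DMSO group and 2.70, 2.43 and 2.78 in the BA+rapamycin group and was called in no comparison.

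The proteins directed at RNA and nucleotides included 5 of the 15 members called higher in the challenge and all 3 called lower with rapamycin in challenged mice. Oasl1, of the oligoadenylate synthetase family (probe at chr5:115387861-115387920), was at -2.24, -1.96 and -1.58 in the DMSO group, -2.33, -2.66 and -2.60 in the rapamycin group, 0.18, 0.19 and 0.86 in the BA+DMSO group and -0.25, -1.65 and -0.95 in the BA+rapamycin group, and rose 5.06-fold under the challenge, by 2.34 ± 0.33 (SE, adjusted p = 0.00135). Rsad2, known as viperin (probe at chr12:27127859-27127918), was at -3.46, -4.17 and -2.35 in the DMSO group, -4.17, -3.15 and -3.69 in the rapamycin group, -1.29, -1.91 and -0.36 in the BA+DMSO group and -2.06, -1.70 and -1.74 in the BA+rapamycin group; it was well above background on 2 of the 3 DMSO arrays and rose by 2.14 ± 0.48 (SE, adjusted p = 0.0119). With rapamycin its challenge difference was 1.84 ± 0.48 (SE, adjusted p = 0.0124), so that all BA arrays of both treatments stood above all others. Isg20, an exonuclease, was at 0.98, 0.52 and 1.05 in the DMSO group, 1.09, 1.31 and 1.18 in the rapamycin group, 2.67, 2.78 and 2.46 in the BA+DMSO group and 2.88, 3.12 and 2.85 in the BA+rapamycin group. It rose by 1.79 ± 0.18 (SE, adjusted p = 0.000313) without and 1.76 ± 0.18 (SE, adjusted p = 0.000174) with rapamycin, and it was, with Iigp1, the tested member whose mean was higher with rapamycin in the challenged mice, by 0.31 ± 0.18 (adjusted p = 0.324). Oas2 had similar differences on both backgrounds, at 1.92 ± 0.32 and 1.78 ± 0.32 (adjusted p = 0.00294 and 0.00254).

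Lgals3bp was at 2.31, 2.14 and 2.47 in the DMSO group, 2.18, 2.41 and 2.26 in the rapamycin group, 4.02, 4.30 and 4.51 in the BA+DMSO group and 3.70, 3.38 and 3.45 in the BA+rapamycin group. Its challenge difference was 1.97 ± 0.18 (SE, adjusted p = 0.000178), and its second probe gave 1.72. Mx1, an antiviral GTPase that is truncated in C57BL/6 mice, was at -3.64, -3.56 and -2.81 in the DMSO group, -3.91, -4.66 and -3.70 in the rapamycin group, -1.47, -1.74 and -0.45 in the BA+DMSO group and -1.24, -4.54 and -3.99 in the BA+rapamycin group. The BA+DMSO arrays did not overlap the DMSO arrays, but Mx1 was well above background on 1 of the 3 rapamycin and 1 of the 3 BA+rapamycin arrays, so the low levels there are not resolved. Neither 2.12 ± 0.71 (SE, adjusted p = 0.0576) for the challenge nor -2.04 ± 0.71 (SE, adjusted p = 0.181) for rapamycin under the challenge was called.

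Besides Eif2ak2, the members below 0 in the challenge were Parp9 -0.15 ± 0.21, Ifi35 -0.14 ± 0.21, Gbp2 -0.09 ± 0.22 and Irgm2 -0.04 ± 0.32, none of them called. Parp9, of the ADP-ribosyltransferase family, was at 1.33, 1.17 and 1.14 in the DMSO group, 0.83, 0.98 and 1.01 in the rapamycin group, 1.24, 0.65 and 1.29 in the BA+DMSO group and 0.80, 0.24 and 0.76 in the BA+rapamycin group. Irgm2, an immunity-related GTPase, was at 0.97, 1.25 and 1.12 in the DMSO group, 0.47, 0.62 and 0.81 in the rapamycin group, 1.22, 0.49 and 1.51 in the BA+DMSO group and 0.55, -0.55 and 0.50 in the BA+rapamycin group, and in both of these genes BA+DMSO replicate 2 lay below its companions. Gbp2, a guanylate-binding protein known as a target of interferon gamma, was at 1.92, 1.74 and 1.77 in the DMSO group, 1.61, 1.73 and 1.84 in the rapamycin group, 1.72, 1.27 and 2.19 in the BA+DMSO group and 0.83, 0.74 and 1.14 in the BA+rapamycin group. Its BA+rapamycin arrays lay below all other arrays. Ifi35, a partner of the protein Nmi, was at 2.12, 1.94 and 1.86 in the DMSO group, 1.72, 2.02 and 2.29 in the rapamycin group, 1.69, 1.57 and 2.25 in the BA+DMSO group and 1.26, 1.15 and 1.21 in the BA+rapamycin group, and its BA+rapamycin arrays likewise lay below all others.

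**Figure D2:**
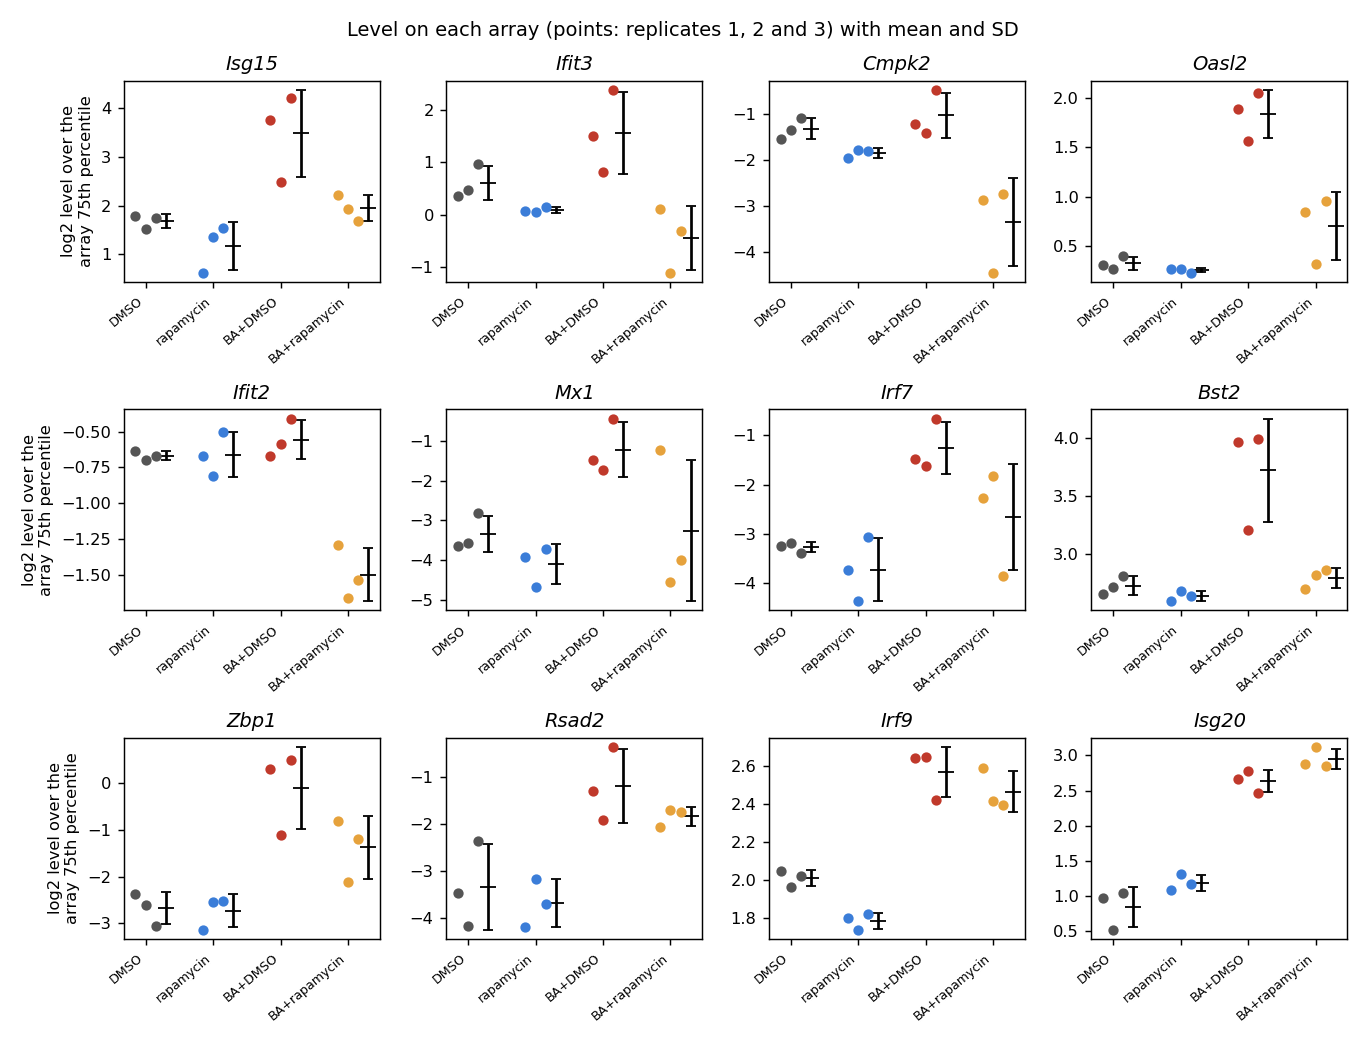
Log2 level over the array 75th percentile for 12 members, with 1 point for each array in the order of replicates 1, 2 and 3 and the mean with SD of each group. Isg15, Bst2 and Oasl2 stood highest in the BA+DMSO group, Irf9 and Isg20 stood high in both challenged groups, and Ifit2 and Cmpk2 stood lowest in the BA+rapamycin group, where Cmpk2 was not well above background.

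Within the challenged mice, most members had lower levels with rapamycin, and few of these differences passed the test. The mean of BA+rapamycin aortas was below that of BA+DMSO aortas in 36 of the 38, with a median log2 difference of -0.88 against -0.03 over all genes. The test across all genes called 3 members lower, Cmpk2, Oasl2 and Ifit2, which is 7.89% against 0.24% of all genes called lower, and 27 members had an unadjusted p under 0.05, as did 4104 of the 20026 genes. In 19 members, or 50% against 8.08% of all genes, the BA+rapamycin arrays were all below the BA+DMSO arrays. All 6 arrays were on the second slide. The 9 macrophage markers had a median of -0.45 here, with 6 below 0. T and NK cell markers were below 0 in 3 of 5 (median -0.75), neutrophil markers in 3 of 4 (median -0.42) and adipocyte markers in 3 of 4 (median -0.38). Plasmacytoid dendritic cell markers were above 0 in 3 of 3 (median 0.76) and smooth muscle markers in 5 of 5 (median 0.18). In each of these lists 0 were called, and their part in the result was not tested. The summed leukocyte marker levels of the 2 groups overlapped, whereas the signal at the 75th percentile was lower on average in the BA+rapamycin group; with that signal as a covariate the median was -0.58 and 4 members were called lower, against 0.469% of all genes. The title of 1 array in each of the 2 groups gives the same date, and 2 BA+DMSO arrays give none; with the title date as a random block, an array without one standing alone, 8 members were called lower, against 1.15% of all genes, with a median of -0.85.

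Cmpk2, a mitochondrial nucleotide kinase whose gene lies next to Rsad2 (probe at chr12:27164119-27164178), was at -1.54, -1.34 and -1.09 in the DMSO group, -1.97, -1.78 and -1.80 in the rapamycin group, -1.21, -1.41 and -0.48 in the BA+DMSO group and -2.87, -4.45 and -2.74 in the BA+rapamycin group. The challenged groups did not overlap, and the difference was -2.32 ± 0.40 (SE, adjusted p = 0.0494), with -2.12 on the second probe. No BA+rapamycin array was well above background for Cmpk2, so the difference is a bound, at least 3.03-fold lower in the BA+rapamycin group, with each dim array set to the lowest signal of its probes well above background where the probe lay under it. With normexp background correction the difference was -0.57 and was not called. Oasl2, another oligoadenylate synthetase-like protein (probe at chr5:115362168-115362227), was at 0.31, 0.27 and 0.40 in the DMSO group, 0.27, 0.27 and 0.23 in the rapamycin group, 1.89, 1.57 and 2.05 in the BA+DMSO group and 0.84, 0.31 and 0.95 in the BA+rapamycin group. It rose 2.85-fold under the challenge, by 1.51 ± 0.20 (SE, adjusted p = 0.000854), and was -1.13 ± 0.20 (SE, adjusted p = 0.0491) in BA+rapamycin relative to BA+DMSO. Ifit2, an RNA-binding protein of the tetratricopeptide family (probe at chr19:34650244-34650303), was at -0.64, -0.70 and -0.67 in the DMSO group, -0.67, -0.81 and -0.50 in the rapamycin group, -0.67, -0.59 and -0.41 in the BA+DMSO group and -1.30, -1.66 and -1.54 in the BA+rapamycin group. It was not called in the challenge alone, at 0.11 ± 0.16 (SE, adjusted p = 0.65), and its difference between the challenged groups was -0.94 ± 0.16 (SE, adjusted p = 0.0464), with the BA+rapamycin arrays below all other arrays. Over 26 alternatives this Ifit2 difference ran from -1.12 to -0.36. These 3 calls lay close to the threshold, and in 8 of the 12 fits that left out 1 array no member was called.

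The other large differences between the challenged groups were not called. Ifit3 was at 0.36, 0.46 and 0.97 in the DMSO group, 0.07, 0.05 and 0.15 in the rapamycin group, 1.51, 0.81 and 2.39 in the BA+DMSO group and 0.10, -1.12 and -0.32 in the BA+rapamycin group; its difference was -2.01 ± 0.39 (SE, adjusted p = 0.0629), 4.04-fold, with no overlap. Isg15, the ubiquitin-like modifier (probe at chr4:155573649-155573708), was at 1.78, 1.51 and 1.75 in the DMSO group, 0.62, 1.35 and 1.53 in the rapamycin group, 3.75, 2.49 and 4.21 in the BA+DMSO group and 2.22, 1.93 and 1.69 in the BA+rapamycin group. It rose 3.49-fold under the challenge, by 1.80 ± 0.39 (SE, adjusted p = 0.0104), and differed by -1.54 ± 0.39 (SE, adjusted p = 0.102) between the challenged groups, which did not overlap. Its second probe gave -1.56. Usp18, the protease that removes Isg15 from its targets and restrains receptor signalling, was at -1.27, -1.34 and -0.97 in the DMSO group, -1.67, -1.65 and -1.56 in the rapamycin group, -0.16, -0.57 and 0.63 in the BA+DMSO group and -0.60, -2.37 and -1.86 in the BA+rapamycin group and differed by -1.58 ± 0.41 (SE, adjusted p = 0.106). Rtp4, a receptor transporter protein, was at 0.78, 0.19 and 0.41 in the DMSO group, 0.28, -0.05 and 0.93 in the rapamycin group, 2.29, 0.84 and 2.82 in the BA+DMSO group and 1.26, -0.26 and 0.59 in the BA+rapamycin group and differed by -1.45 ± 0.50 (SE, adjusted p = 0.179), with overlap through BA+DMSO replicate 2 at 0.84. Iigp1, an immunity-related GTPase, was at -0.09, 0.08 and 0.36 in the DMSO group, -0.27, -0.40 and -0.61 in the rapamycin group, 0.29, 0.61 and -0.53 in the BA+DMSO group and 0.26, 0.42 and 0.19 in the BA+rapamycin group and differed by 0.16 ± 0.26 on the probe used but by -1.40 on its second tested probe, so its direction depended on the probe.

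BA+DMSO replicate 2 was the lowest of its group in 30 of the 38 members and the highest in 4, whereas it was lowest in 43.5% and highest in 39.3% of all genes. It also had the lowest summed macrophage, leukocyte and T and NK cell (32.2) marker levels of its group. Its summed neutrophil (600.4), plasmacytoid dendritic cell (437), smooth muscle (4815) and adipocyte (58.0) marker levels were the highest, and the part of these cells was not tested. All these sums are relative to the signal at the 75th percentile, which was 78.1 on replicate 2 against 132 and 246 on replicates 1 and 3. The part of array brightness in them was not tested either. Without BA+DMSO replicate 2, 28 of the 38 members, or 73.7%, were called lower with rapamycin in the challenged mice, against 24% of all genes. The median was then -1.12. The 28 included Ifit3, Isg15, Usp18, Rtp4, Zbp1, Irf7 and Ifit1, with adjusted p of 0.00292, 0.00251, 0.0113, 0.00763, 0.00681, 0.0493 and 0.0114, whereas Mx1 had 0.0511. The challenge then called 24 members higher, or 63.2% against 14.8% of all genes. Under every choice of the array left out, the median difference between the challenged groups stayed between -1.12 and -0.67. Without BA+DMSO replicate 3 or BA+rapamycin replicate 2, 0 members were called lower.

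**Figure D3:**
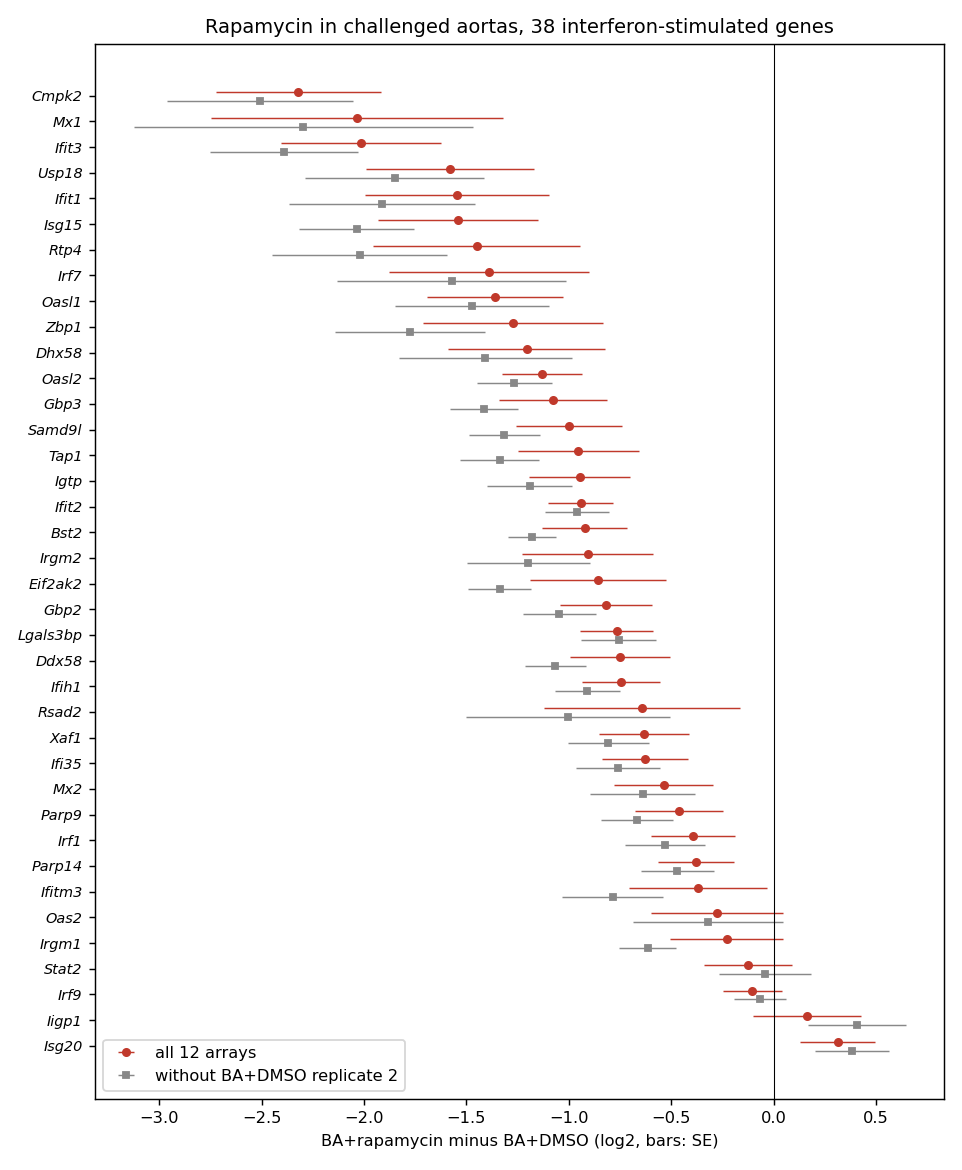
Log2 difference between BA+rapamycin and BA+DMSO for the 38 tested members, with SE bars, from all 12 arrays (red circles) and without BA+DMSO replicate 2 (grey squares), ordered by the measured difference, with Isg20 highest at 0.31. Cmpk2 and Tap1 were not well above background on any BA+rapamycin array, so their points are measured values below background. All but Iigp1 and Isg20 lie below 0 in both fits.

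The challenge was also measured in mice that received rapamycin, on arrays not used for the challenge without rapamycin. In BA+rapamycin relative to rapamycin aortas, 10 members were called higher, or 26.3% against 19.8% of all genes, and 5 were called lower, or 13.2% against 22.9% of all genes. The median was 0.19 against -0.07 over all genes, and it was -0.0024 without BA+rapamycin replicate 1 and 0.42 without BA+rapamycin replicate 2. With the signal at the 75th percentile as a covariate it was 0.92, and 9 members were called higher, against 5.12% of all genes, and 0 lower, with 4 calls shared with the fit without the covariate. The members called higher on both backgrounds numbered 8, or 21.1% against 8.12% of all genes, namely Irf9, Oas2, Oasl1, Isg20, Rsad2, Zbp1, Mx2 and Lgals3bp. The 7 called higher without rapamycin and not with it, or 18.4% against 2.24% of all genes, were Ifih1, Dhx58, Oasl2, Irf7, Isg15, Bst2 and Ifitm3, and the 2 called higher with it and not without it, or 5.26% against 11.7%, were Stat2 and Iigp1. The 5 called lower with rapamycin were Cmpk2 (at least 1.72-fold lower, since no BA+rapamycin array was well above background), Ifit2 (-0.84 ± 0.16), Gbp2 (-0.82 ± 0.22), Samd9l (-0.81 ± 0.26) and Ifi35 (-0.80 ± 0.21). Across the 38 members the 2 differences correlated with a Pearson r of 0.79 and a Spearman rho of 0.79, a description across genes, which are not independent replicates. On the second slide alone, 5 members were called higher, against 6.32% of all genes, and 0 lower, against 5.65%.

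**Figure D4:**
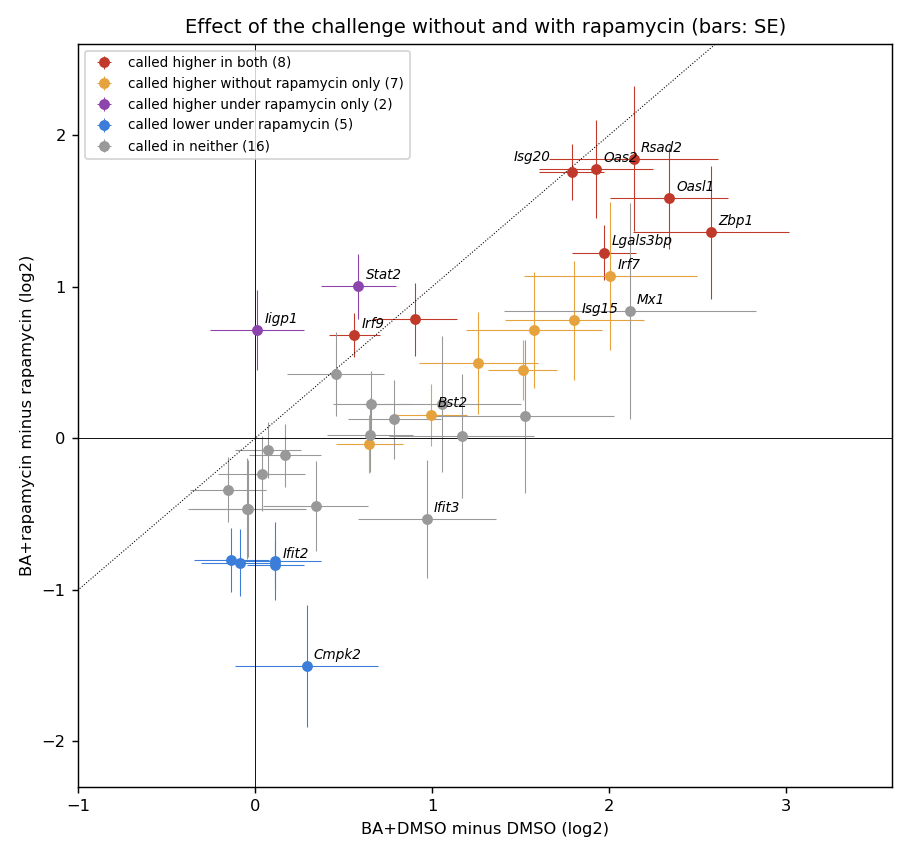
Log2 difference of the challenge without rapamycin (horizontal) and with it (vertical) for the 38 tested members, with SE bars and a dotted line of equal differences. Most points lie below the line. Isg20 and Oas2 lie close to it, Stat2, Irf9 and Iigp1 above it, and Cmpk2, which was not well above background in the BA+rapamycin group, lowest.

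Whether the challenge acted differently with rapamycin was tested as an interaction. With all arrays 0 members were called by limma, as were 0% of all genes, and 10 members had an unadjusted p under 0.05, all with negative differences, as did 1204 of the 20026 genes in either direction. The interaction was below 0 in 35 of the 38 members, with a median of -0.71, which ran from -0.92 to -0.29 over the alternatives and was -0.29 with normexp background correction and -0.30 with the signal at the 75th percentile as a covariate. The smallest adjusted p among the members was 0.494. The macrophage markers also had mostly negative values here, with 8 of 9 below 0, a median of -1.04, 5 at an unadjusted p under 0.05 and 0 called. Neutrophil markers were below 0 in 3 of 4 (median -1.36), endothelial markers in 5 of 5 (median -0.37) and fibroblast markers in 3 of 4 (median -0.50). Smooth muscle markers were below 0 in 0 of 5 (median 0.25) and plasmacytoid dendritic cell markers in 0 of 3 (median 0.84). In each of these lists 0 were called, and their part in the members' values was not tested. Without BA+DMSO replicate 2, 12 members were called lower, or 31.6% against 7.41% of all genes: Ddx58, Ifih1, Eif2ak2, Ifit2, Ifit3, Oasl2, Isg15, Gbp2, Gbp3, Bst2, Tap1 and Samd9l. In no other fit that left out 1 array was a member called.

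In mice without the challenge, no member was called between rapamycin and DMSO. By limma 0 members were called, against 0.00499% of all genes. An unadjusted p under 0.05 was found for 2 of the 38 members, Igtp at -0.68 ± 0.25 and Stat2 at -0.54 ± 0.21, and for 888 of the 20026 genes, so the members' share is near that of all genes. The median was -0.23 against -0.01 over all genes, and 34 of the 38 members lay below 0. In 18 members, or 47.4% against 11.8% of all genes, every rapamycin array lay below every DMSO array. The rapamycin array on the slide of the DMSO arrays had a member median of -0.34 relative to the DMSO mean, and the 2 on the other slide had -0.21 and -0.19. Macrophage markers were above 0 in 9 of 9 (median 0.52), endothelial markers in 5 of 5 (median 0.40), fibroblast markers in 3 of 4 (median 0.56), neutrophil markers in 4 of 4 (median 0.81) and smooth muscle markers in 0 of 5 (median -0.07), with 0 called in each list, and their part in the members' values was not tested. Igtp, an immunity-related GTPase, was at 0.72, 1.099 and 0.98 in the DMSO group, 0.25, 0.26 and 0.26 in the rapamycin group, 1.04, 0.48 and 1.39 in the BA+DMSO group and 0.28, -0.37 and 0.15 in the BA+rapamycin group, so that the rapamycin arrays lay close together and below all DMSO arrays. Members below 0 both with and without the challenge numbered 33, or 86.8% against 32.2% of all genes; these 2 comparisons share no array. Groups without overlap in both comparisons were found for 7 members, or 18.4% against 2.74% of all genes: Ifit1, Ifit3, Oasl1, Cmpk2, Usp18, Gbp3 and Igtp. The SE of a difference between groups ran from 0.14 to 0.71, so small changes could not be resolved in this fit. Each SE rests on a spread pooled over all 4 groups, which was unequal. Correlations between arrays were 0.949 to 0.974 in the BA+DMSO and 0.974 to 0.981 in the BA+rapamycin group. They were 0.986 to 0.989 in the DMSO and 0.987 to 0.988 in the rapamycin group. Fitted on the rapamycin and DMSO groups alone, 0 members were called, against 0.015% of all genes.

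The remaining members are given by role and range. The immunity-related and guanylate-binding GTPases Gbp3, Igtp and Irgm1 had challenge differences of 0.79, 0.04 and 0.45, none called, and differences of -1.08, -0.95 and -0.23 between the challenged groups. Among the membrane and antigen presentation members, Bst2 (tetherin) rose by 0.99 and Ifitm3, which blocks viral entry, by 1.26, while Tap1, a peptide transporter, had 0.34 and was well above background on no BA+rapamycin array. Ifit1 had 1.05 for the challenge and -1.54 between the challenged groups, the apoptosis factor Xaf1 0.66 and -0.63, Samd9l 0.11 and -0.998, and Parp14 0.07 and -0.38, none called in these 2 comparisons. Ifit1 was well above background on 2 of the 3 BA+DMSO and 1 of the 3 BA+rapamycin arrays, so its differences are not resolved at the low end. By role, the median challenge difference was largest in the RNA- and nucleotide-directed effectors at 1.51 and smallest in the ADP-ribosyltransferase family at -0.04. The Ifit, Oas, Mx, Gbp and Irg genes belong to families of similar sequence, and cross-hybridisation between their members was not tested.

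**Figure D5:**
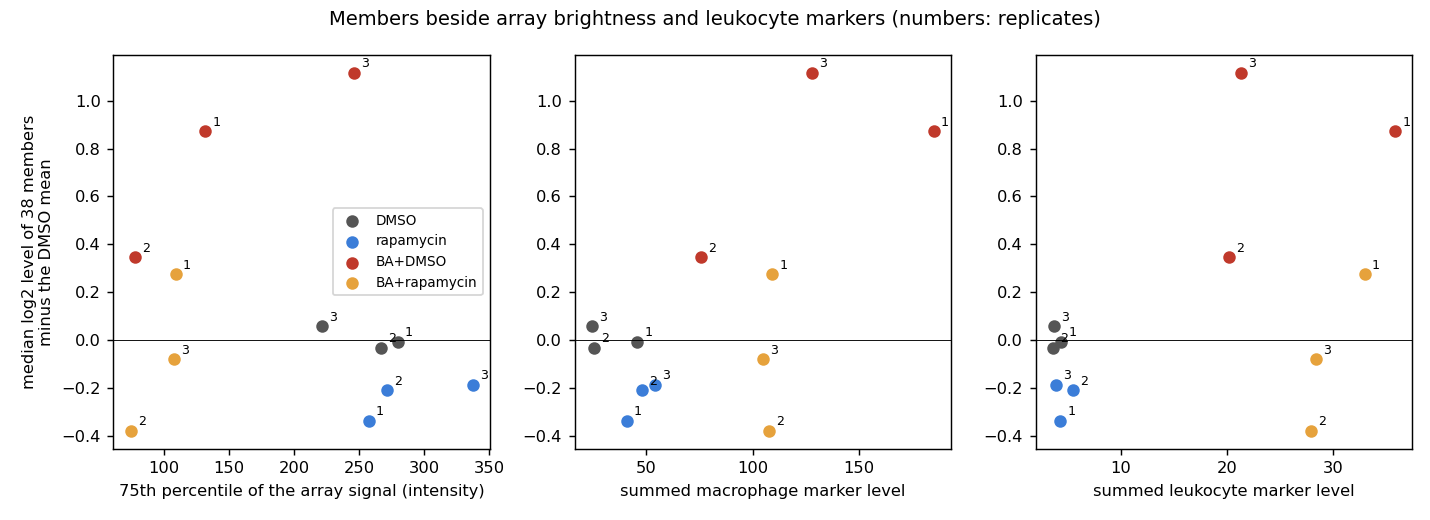
Median log2 level of the 38 members relative to the DMSO mean (vertical) on each array, against the signal at the array 75th percentile, the summed macrophage marker level and the summed leukocyte marker level (horizontal), with replicate numbers beside the points. The BA+DMSO arrays lie between 0.35 and 1.12 and the BA+rapamycin arrays between -0.38 and 0.28, while their leukocyte marker levels overlap.

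The genes that make or receive the interferon signal are read against 21.4% of all genes called in the challenge in either direction. Of 23 listed interferon ligands, 15 were on the array and 5 were tested; limma called 0 in the challenge, with 1 at an unadjusted p under 0.05. Of the untested ligands, 8, among them Ifnb1 and Ifng, were well above background on 0 of 12 arrays. The 3 tested ligands with the largest challenge differences were Ifna11 at 1.68, Ifna12 at 0.80 and Il28b at 0.75, with adjusted p of 0.15, 0.332 and 0.215. Ifna1 and Ifna11 were called higher in BA+rapamycin than in rapamycin aortas, by 1.07 and 3.32, where 19.8% of all genes were called higher. Between the challenged groups all 5 tested ligands lay above 0, with a median of 0.57 and 0 called. All these ligand levels are relative to the signal at the 75th percentile of the array. That signal averaged 256 in the DMSO, 289 in the rapamycin, 152 in the BA+DMSO and 97.3 in the BA+rapamycin group. The part of array brightness in the ligand differences was not tested. Of 11 listed receptor and kinase genes, 9 were tested and 2 were called lower in the challenge, Il28ra at -1.38 (adjusted p = 0.032) and Jak2 at -0.79 (adjusted p = 0.00794). The next largest was Ifngr1 at 0.39, and Ifnar1, Ifnar2, Ifngr2, Il10rb, Jak1 and Tyk2 had 0.10, 0.15, -0.02, 0.15, 0.35 and -0.19, none called.

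Of 13 tested genes upstream of interferon production, 3 were called higher in the challenge: Tmem173, the DNA-signalling adaptor Sting, at 2.17, Irf8 at 1.57 and Irf5 at 1.46. Irf8 and Irf5 are known as transcription factors of myeloid cells, and none of the 13 was called between the challenged groups, with 1 at an unadjusted p under 0.05. Of 7 negative regulators of interferon signalling, Ptpn6 was called higher at 2.44 and Pias1, Irf2 and Ptpn11 lower, with Pias1 at -0.97, whereas Socs3 had 1.45 (adjusted p = 0.0915). Ptpn6 is a phosphatase of blood cells. A further 58 tested interferon-induced genes, of 70 listed, gave 17 called higher and 0 lower in the challenge, against 10.4% of all genes called higher, a median of 0.34, and were led by Ifi27l2a at 2.43, Mnda at 2.21 and Oas1a at 2.21. Between the challenged groups limma called 0 of these 58. Their median there was -0.31, and 20 had an unadjusted p under 0.05, as did 4104 of the 20026 genes. The chemokines Cxcl9 and Cxcl10 were well above background on at most 2 of 12 arrays and were not tested.

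Markers of cells that can produce or answer interferon were counted in the same arrays. All 4 leukocyte and all 9 tested macrophage markers were called higher in the challenge, and 4 and 5 of them in the challenge under rapamycin, with 0 called between the challenged groups in either list. Siglech, Pacsin1 and Cox6a2 were the 3 tested genes listed as markers of plasmacytoid dendritic cells, a major source of type I interferon. In the challenge 1 was called higher, and in the challenge under rapamycin all 3, where 19.8% of all genes were called higher. Their summed level averaged 153 in the DMSO group, against 3.87 for the 4 leukocyte markers. The signal at the 75th percentile averaged 289 in the rapamycin and 97.3 in the BA+rapamycin group. Whether these 3 genes reported such cells or followed array brightness was not tested. Of 5 tested T and NK cell markers, 3 were called higher on each background, while the NK markers Ncr1 and Klrb1c were well above background on 0 of 12 arrays. The part of any cell type in the levels of the members was not tested.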

How the data were processed

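Expression was measured on 12 one-colour Agilent mouse arrays, 3 for each of 4 groups. The deposited scanner files hold intensity values per spot that the authors extracted with Feature Extraction (version 9.5.1.1 in the submitters' processing notes, 10.7.1.1 per the file headers), with background subtracted and probes placed on mm9. Of 62976 spots, 3671 controls were left out, spots with outlier flags were removed and the log2 signals of a probe were averaged and centred on each array's 75th percentile. A probe counted as well above background where a share of at least 0.5 of its spots did. Of 55681 probes, 27801 were tested with limma 3.58.1 (R 4.3.3) in a model of 4 group means over 12 arrays. P-values were adjusted by Benjamini-Hochberg over all tested probes, and a call needs an adjusted p under 0.05; a gene is its tested probe with the highest mean. The test was checked on simulated data with independent noise and the same spread of a probe in every group. The simulation held no effect of slide or array brightness, so the check does not cover these or the unequal spread of the groups. All 41 members are named. Values per array are given for up to 6 of the largest rises and falls in the challenge and in rapamycin under the challenge among members well above background on all arrays of the higher group (which leaves out Ifit1), for members called with rapamycin or in the interaction, and for Irf1, Irf7, Irf9 and Stat2, and the 3 largest challenge differences are given for each pathway list. Igtp was added after its values were seen. Members and lists were chosen with earlier results of these data known. The authors' deposited normalized table, also on an intensity scale, served as an alternative. The number of arrays limits the precision.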

Additional observations from a re-analysis of the deposited data

How the results depend on the processing

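The median difference of the members kept its sign in every alternative for the challenge (0.57 to 1.17), rapamycin under the challenge (-1.12 to -0.48), rapamycin alone and the interaction (-0.92 to -0.29), and it turned in 1 of 26 for the challenge under rapamycin (-0.0024 to 0.92, the lowest without BA+rapamycin replicate 1). Counts of calls moved more. In the challenge, 15 members were called in the reported fit, 0 with the slide as a fixed block and 24 with it as a random block. With array brightness as a covariate 27 were called, 26 higher and 1 lower. The count was 1 with array weights (whose estimation did not converge) and 9 when fitted on the groups compared alone. It was 8 to 24 when 1 array was left out, 24 without BA+DMSO replicate 2. The share of all genes called was 21.4% in the reported fit and, in the order of these fits, 0.0599%, 37.8%, 19.5%, 0.494%, 4.78% and 7.87% to 39.4%. Between the challenged groups, 3 were called in the reported fit, 0 with normexp background correction, 0 with no filter on dim probes and 0 with the slide as a fixed block. The count was 1 with the slide and 8 with the date in the array titles as a random block. It was 0 with array weights, 0 on the second slide only, 0 on the groups compared alone, and 0 to 28 when 1 array was left out. The share of all genes called was 0.305% in the reported fit and 1.69% with the title date. In the other fits just listed that kept all arrays of both groups it was 0% to 0.255%. With the percentile over detected probes and with the brightness covariate, 4 members were called in each fit, against 1.76% and 1.21% of all genes. Rapamycin alone gave 3 calls with array weights, against 5.75% of all genes. The challenge under rapamycin gave 15 calls, 9 with the brightness covariate, 5 on the second slide only, 20 with array weights and 19 on the groups compared alone. When 1 array was left out it gave 10 to 20, with 20 without BA+DMSO replicate 2. The share of all genes called was 42.7%, 6.91%, 12%, 66.8%, 57.8% and 24.2% to 58.3%, in that order. The members' share thus lay below that of all genes in the reported fit, with array weights and on the groups alone. It also lay below in the fits that left out 1 array, except without rapamycin replicate 3, BA+rapamycin replicate 2 or BA+rapamycin replicate 3. The interaction gave 0 to 12 calls when 1 array was left out. The causes were not tested. Of 528 recalculated values of 21 named differences, 21 changed sign, all of them for reported differences between -0.15 and 0.16. For the challenge these were Eif2ak2 (0.12 with normexp, 0.019 with the percentile over detected probes, 0.70 with brightness, -0.33 to 0.44 when 1 array was left out), Irgm2 (0.027 with the percentile over detected probes, 0.0063 with the slide and 0.036 with the title date as a random block, 0.63 with brightness, 0.032 with array weights, -0.26 to 0.25 when 1 array was left out), Parp9 (0.25 with brightness, -0.27 to 0.052 when 1 array was left out), Ifi35 (0.26 with brightness, 0.068 with array weights) and Gbp2 (0.39 with brightness, 0.094 with array weights, -0.32 to 0.14 when 1 array was left out). Between the challenged groups it was Iigp1 (-0.18 with brightness, -0.16 to 0.41 when 1 array was left out). No paired analysis was possible because the replicate numbers were given in accession order and do not tie arrays of different groups to each other; the dates in the titles, which some arrays of different groups share, entered as the random block above. Dim arrays limit low members: Cmpk2 and Tap1 were not well above background on any BA+rapamycin array, Ifit1 and Mx1 were on 1 and Dhx58, Zbp1, Irf7 and Usp18 on 2 of the 3.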
